A study of Homo sapiens with 6 samples.

Results

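The genes described here encode the semaphorins, their plexin and neuropilin receptors, the SLIT ligands and ROBO receptors, and the netrins with their UNC5 receptors. They were chosen by gene symbol (SEMA3 to SEMA7, PLXNA to PLXND, NRP1 and NRP2, SLIT1 to SLIT3, ROBO1 to ROBO4, NTN1 to NTN5, the netrin-G genes, and UNC5A to UNC5D), a rule that itself uses no difference between the lines. The symbols took 49 probe sets, and for the 2 genes with 2 probe sets (SEMA4D and NRP2) the brighter was kept, which left 47 genes of the 18417 measured. RefSeq's gene table holds 48 protein-coding genes of these symbols, and the remaining one, SEMA4C, was not analysed here. All were measured in H358, an established human non-small cell lung cancer line, on 6 microarrays. In 3 cultures the cells stably expressed TwistER, a fusion by which 4-hydroxytamoxifen (4OHT) switches on a Twist transcription factor. In the other 3 cultures they stably expressed green fluorescent protein (GFP). Every culture, of either line, received 100 nM 4OHT for 12 days. The titles place the TwistER samples after, and the GFP samples before, epithelial-mesenchymal transition (EMT), in which epithelial cells take on a migratory form. TwistER cells without 4OHT were not among the arrays, so what the switched-on factor does and what else sets the 2 lines apart cannot be told apart. The labels do not say whether a line is a clone or a pool.

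Semaphorins are secreted or membrane-bound signals that bind plexins, whose cytoplasmic part acts on small GTPases and so on the actin skeleton and on adhesion. Secreted class 3 semaphorins mostly need a neuropilin as the binding partner that carries them to a plexin. SLIT proteins bind ROBO receptors and usually repel cells, and netrins attract through DCC or neogenin and repel through UNC5 receptors. All of these were first studied in growing axons, and they are also known from vessels, lung branching and the movement of tumour cells.

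Expression values are on the log2 scale, a difference is the TwistER mean minus the GFP mean, and its SE and adjusted p come from limma (Benjamini-Hochberg over the 18417 genes, threshold 0.05). One array, GFP replicate 1, was less like its own group: over genes its r with GFP replicates 2 and 3 was 0.982, where the other pairs within a group had r of 0.993 to 0.996. Among the 47 guidance genes it was the lowest GFP array in 28 and the highest in 11, while over all genes these shares were 41.8% and 39.9%. Results that rest on this array are therefore also given without it. As a check of the cell type, EPCAM and the keratins KRT7, KRT8 and KRT18 were bright in both lines, with group means between 7.71 and 12.06. EPCAM was still lower in TwistER arrays, at 8.77 on average against 12.06 in GFP arrays, and KRT8 also fell. A further keratin, KRT19, averaged 5.68 in TwistER arrays and 8.89 in GFP arrays. The lung lineage markers NKX2-1, SFTPB, SFTPC and NAPSA had group means between 4.32 and 4.71, below the median gene mean of 5.46. The epithelial marker CDH1 averaged 5.09 in TwistER arrays and 10.09 in GFP arrays.

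In TwistER cells 7 guidance genes rose: the semaphorins SEMA5A, SEMA6D and SEMA3C, the plexins PLXNC1 and PLXND1, the neuropilin NRP1 and the SLIT receptor ROBO2. SEMA4D and NTNG1 fell. The rises ran from 5.72-fold for SEMA5A to 1.48-fold for PLXND1, and the falls were 1.65-fold for SEMA4D and 1.60-fold for NTNG1. The folds of ROBO2, PLXNC1 and SEMA6D start from dim GFP means of 4.16, 4.16 and 3.99, under the lower quartile of gene means (4.21). In these RNA pools a change in RNA per cell and a change in the share of cells that express a gene cannot be told apart. The 7 rises were 14.9% of the 47 genes, where 4.72% of all genes tested rose. The 2 falls were 4.26%, near the 4.11% of all genes tested that fell. In 12 guidance genes (25.5%) every TwistER array lay above every GFP array, against 13.9% of all genes, and in 2 (4.26%) every TwistER array lay below, against 14.5% of all genes. The median difference over the 47 was 0.07, beside 0.01 over all genes tested. It was 0.04 without GFP replicate 1. Between arrays of a group, the median of the 47, with each gene centred on its mean, had an SD of 0.05. The other 38 genes did not pass, with differences between -0.50 and 0.44 and 95% intervals reaching from -0.90 to 0.81.

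**Figure D1:**
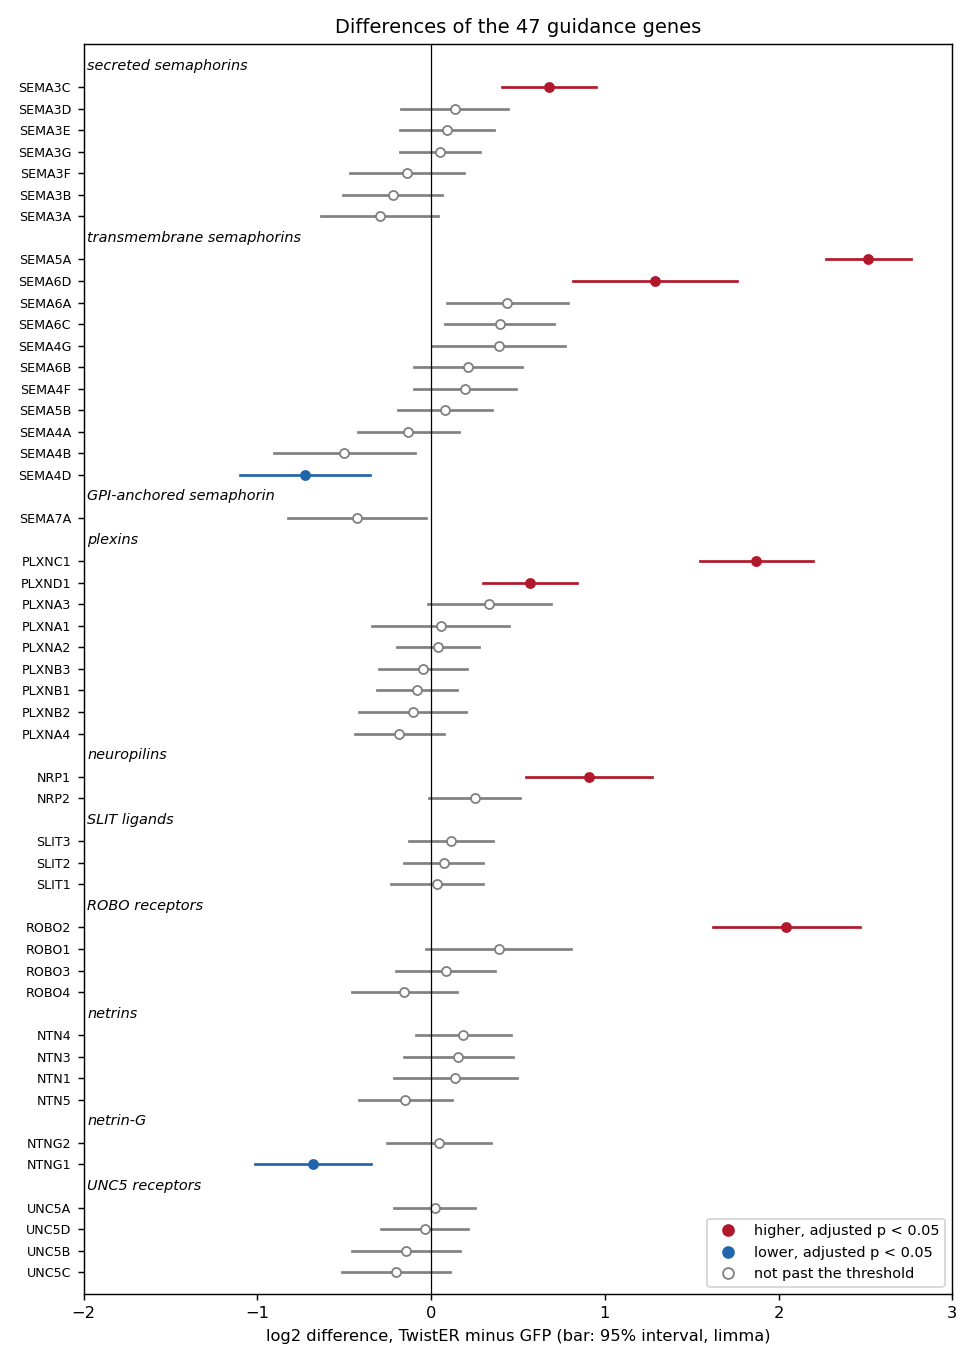
Log2 difference (TwistER minus GFP) of each of the 47 guidance genes on the horizontal axis, grouped by family, with limma's 95% interval as a bar (3 arrays per group). Filled red points are the 7 genes that rose, led by SEMA5A at 2.52 and ROBO2 at 2.04, filled blue points are SEMA4D and NTNG1, which fell, and open grey points did not pass.

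Among the 11 transmembrane semaphorins, SEMA5A and SEMA6D rose and SEMA4D fell, and the other 8 did not pass. SEMA5A carries thrombospondin repeats beside its semaphorin domain and is known as a ligand of PLXNB3. It read 7.80, 7.97 and 7.79 in the TwistER arrays, against 5.27, 5.38 and 5.36 in the GFP arrays. The groups lay far apart relative to their spread, and the difference was 2.52 ± 0.11 SE (limma adjusted p = 6.13e-06). SEMA6D, which signals through PLXNA1 in the chick heart, read 4.93, 5.33 and 5.60 in the TwistER arrays and 4.32, 3.70 and 3.96 in the GFP arrays. Its groups did not overlap either, with TwistER replicate 1 the nearest to the GFP arrays, and its difference was 1.29 ± 0.21 (limma adjusted p = 0.00570). SEMA6A and SEMA6C, the relatives of SEMA6D, averaged 5.17 and 5.50 in TwistER arrays and 4.73 and 5.11 in GFP arrays. In both genes every TwistER array was above every GFP array, yet neither difference passed (0.44 and 0.40, adjusted p = 0.127 for each). SEMA6B, the fourth of that class, had a difference of 0.21, and SEMA4G averaged 5.02 in TwistER arrays and 4.63 in GFP arrays (difference 0.39, adjusted p = 0.227).

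SEMA4D, the ligand of PLXNB1, is also shed from cells and is known for work on endothelium and immune cells. It read 4.95, 4.32 and 4.56 in the TwistER arrays and 5.42, 5.25 and 5.34 in the GFP arrays. All TwistER arrays were lower, by -0.73 ± 0.16 on average (limma adjusted p = 0.0282). This call was lost without GFP replicate 2 or 3 or without TwistER replicate 2 or 3, with a highest adjusted p of 0.111. A second, dimmer SEMA4D probe set ran the other way, at 5.04, 4.80 and 4.64 in TwistER arrays against 4.62, 4.44 and 4.82 in GFP arrays. The groups of this probe set overlapped, and its difference of 0.20 ± 0.15 did not pass when every probe set was fitted (limma adjusted p = 0.523). Averaging both probe sets gave SEMA4D a difference of -0.26 (limma adjusted p = 0.355), so the fall rests on the brighter one. SEMA4B averaged 5.47 ± 0.11 in TwistER arrays and 5.97 ± 0.35 in GFP arrays (SD, n = 3). The SEMA4B difference, -0.50 ± 0.18, missed the threshold (limma adjusted p = 0.135).

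**Figure D2:**
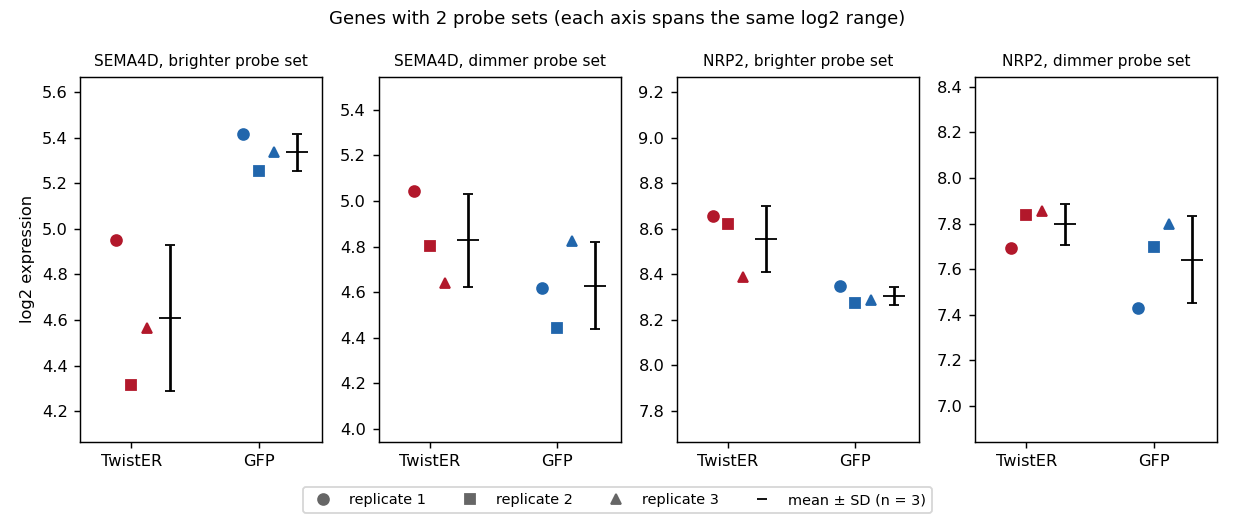
Log2 expression of each array (vertical axis) for both probe sets of SEMA4D and of NRP2, TwistER left and GFP right of each panel, with symbols for the replicates and the mean ± SD (n = 3) beside them. The brighter SEMA4D probe set is lower in every TwistER array while the dimmer one overlaps, and the NRP2 means are higher in TwistER for both probe sets without passing the threshold.

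Of the 7 secreted semaphorins, SEMA3C rose and the other 6 did not pass. SEMA3C is a ligand of neuropilin and plexin complexes, PLXND1 among them, and is needed for the cardiac outflow tract in mice. It read 9.81, 9.83 and 9.83 in the TwistER arrays, against 8.95, 9.25 and 9.24 in the GFP arrays. The TwistER arrays were nearly equal and all above the GFP arrays, and the difference was 0.68 ± 0.12 (limma adjusted p = 0.00847), a 1.60-fold rise. SEMA3A, the prototype repellent of this class, was bright too and read 8.83, 8.95 and 8.75 in the TwistER arrays and 8.83, 9.30 and 9.28 in the GFP arrays. Here GFP replicate 1 lay among the TwistER values, and the difference of -0.30 ± 0.15 did not pass (limma adjusted p = 0.301). In RefSeq's gene table SEMA3C, SEMA3E, SEMA3A and SEMA3D all lie on chromosome 7. SEMA3E, the ligand of PLXND1 in mice, and SEMA3D had differences of 0.09 and 0.14. SEMA3B and SEMA3D were dim, with means of 3.38 and 3.30 over 6 arrays, in the lower quartile of all genes (under 4.21).

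SEMA7A, held at the membrane by a lipid anchor, is a ligand of PLXNC1 and of integrin beta-1. It read 7.14, 7.01 and 7.10 in the TwistER arrays and 7.10, 7.66 and 7.76 in the GFP arrays. GFP replicate 1 fell within the TwistER range, the other GFP arrays lay above it, and the difference of -0.42 ± 0.17 did not pass (limma adjusted p = 0.201).

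Of the 9 plexins, PLXNC1 and PLXND1 rose and the A and B classes did not pass. PLXNC1, the receptor of SEMA7A, read 5.88, 6.31 and 5.91 in the TwistER arrays, against 4.29, 4.12 and 4.07 in the GFP arrays. Its groups were far apart, with a difference of 1.87 ± 0.14 (limma adjusted p = 0.000124), a 3.66-fold rise. PLXND1, a receptor of SEMA3E known from vessel patterning in mice, read 5.63, 5.81 and 5.90 in the TwistER arrays and 5.09, 5.26 and 5.28 in the GFP arrays. The groups did not overlap, and the difference was 0.57 ± 0.12 (limma adjusted p = 0.0204). PLXND1 lost this call without GFP replicate 2, TwistER replicate 2 or TwistER replicate 3, with adjusted p of up to 0.0936. Among the other 7 plexins, PLXNA3 had the largest difference over all arrays (0.34, adjusted p = 0.261). Without GFP replicate 1 it was 0.16, smaller in size than that of PLXNA4 (-0.23) and PLXNB2 (-0.23). Over all arrays PLXNB1, PLXNB2 and PLXNB3, receptors of class 4 and 5 semaphorins, had differences of -0.08, -0.11 and -0.05.

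Both neuropilin probe sets were bright, and NRP1 rose. NRP1, a co-receptor of class 3 semaphorins and of VEGF-A, read 8.75, 8.75 and 8.66 in the TwistER arrays, against 7.45, 8.05 and 7.93 in the GFP arrays. The TwistER arrays were all higher, the GFP arrays spread more widely because of GFP replicate 1, and the difference was 0.91 ± 0.16 (limma adjusted p = 0.00893), or 1.88-fold. Without GFP replicate 1 it was 0.73, with a limma adjusted p of 0.00251. NRP2, the co-receptor that also serves VEGF-C, read 8.66, 8.62 and 8.39 in the TwistER arrays and 8.35, 8.27 and 8.29 in the GFP arrays. Its groups were separate but close, and the difference of 0.25 ± 0.11 did not pass (limma adjusted p = 0.253). The dimmer NRP2 probe set had a difference of 0.16 ± 0.13 (limma adjusted p = 0.575 with every probe set fitted).

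**Figure D3:**
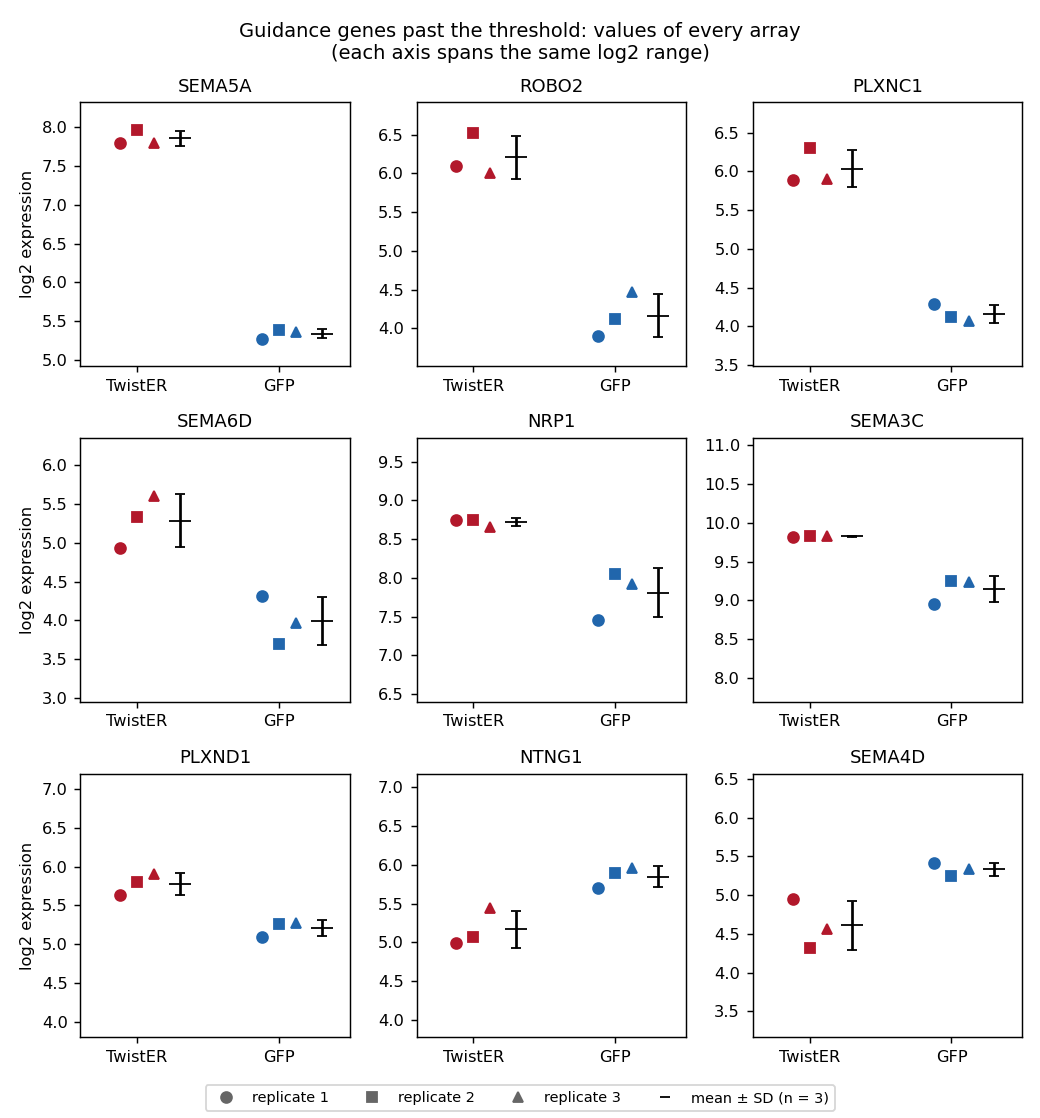
Log2 expression (vertical axis) of every array for the 9 guidance genes past the threshold, TwistER left and GFP right of each panel, with symbols for the replicates and the mean ± SD (n = 3) beside them. SEMA5A, ROBO2 and PLXNC1 show the widest gaps, NTNG1 and SEMA4D lie lower in TwistER, and GFP replicate 1 is the lowest array of NRP1 and SEMA3C.

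In the SLIT and ROBO system a single receptor, ROBO2, rose, and the 3 ligands did not pass. ROBO2, which guides commissural axons and kidney outgrowth in mice, read 6.09, 6.52 and 6.01 in the TwistER arrays, against 3.90, 4.12 and 4.46 in the GFP arrays. No array of one line approached the other line, and the difference was 2.04 ± 0.18 (limma adjusted p = 0.000299), a 4.13-fold rise. ROBO1, its neighbour on chromosome 3 and the receptor most widely found in epithelia and tumours, read 8.12, 8.32 and 8.12 in the TwistER arrays and 7.37, 8.02 and 8.0 in the GFP arrays. These values were separate by a narrow margin, and the difference of 0.39 ± 0.18 did not pass (limma adjusted p = 0.271). Without GFP replicate 1 the ROBO1 difference was 0.17. SLIT2, the ligand bright on these arrays, read 7.15, 7.16 and 7.11 in the TwistER arrays and 7.02, 7.13 and 7.06 in the GFP arrays. Its groups overlapped, with a difference of 0.07 and a 95% interval of -0.16 to 0.30. SLIT1 and SLIT3 had differences of 0.03 and 0.11, ROBO3, a receptor of crossing axons, 0.08, and the endothelial ROBO4 -0.15.

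Among netrin genes, NTNG1 fell, and the secreted netrins and the UNC5 receptors did not pass. NTNG1 encodes netrin-G1, which is anchored in the membrane and binds the surface protein LRRC4C rather than DCC or UNC5. It read 4.99, 5.07 and 5.44 in the TwistER arrays and 5.70, 5.89 and 5.96 in the GFP arrays. All TwistER arrays were lower, by -0.68 ± 0.15 on average (limma adjusted p = 0.0227). The NTNG1 call was lost without GFP replicate 2 or 3 or TwistER replicate 1 or 2, with a highest adjusted p of 0.108. NTN4, a laminin-binding netrin of basement membranes, read 8.88, 9.06 and 9.14 in the TwistER arrays and 8.71, 8.92 and 8.90 in the GFP arrays. The NTN4 groups overlapped, and the difference of 0.18 ± 0.12 did not pass (limma adjusted p = 0.450). NTN1, the classic DCC ligand, had a difference of 0.14, with a 95% interval of -0.22 to 0.50, and of -0.01 without GFP replicate 1. The 4 UNC5 receptors, which can trigger cell death when no netrin is bound, had differences between -0.20 and 0.02, and UNC5C and UNC5D were in the lower quartile of brightness.

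To show the DNA at the starts of the 3 genes with the largest differences, RefSeq's promoter windows (build GRCh38.p14, 250 bases before to 50 after an annotated start, on the strand given, 5′ to 3′) are printed with every CANNTG in capitals. CANNTG is the E-box, the motif family that basic helix-loop-helix factors such as Twist bind, and it reads as CANNTG on both strands.
SEMA5A chr5:9546026-9546325 (-): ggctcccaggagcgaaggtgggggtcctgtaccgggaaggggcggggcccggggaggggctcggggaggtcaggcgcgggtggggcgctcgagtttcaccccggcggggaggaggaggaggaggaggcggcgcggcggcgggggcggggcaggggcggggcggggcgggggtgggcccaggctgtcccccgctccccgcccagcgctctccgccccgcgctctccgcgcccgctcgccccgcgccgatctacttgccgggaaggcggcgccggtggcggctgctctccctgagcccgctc
ROBO2 chr3:76310630-76310929 (+): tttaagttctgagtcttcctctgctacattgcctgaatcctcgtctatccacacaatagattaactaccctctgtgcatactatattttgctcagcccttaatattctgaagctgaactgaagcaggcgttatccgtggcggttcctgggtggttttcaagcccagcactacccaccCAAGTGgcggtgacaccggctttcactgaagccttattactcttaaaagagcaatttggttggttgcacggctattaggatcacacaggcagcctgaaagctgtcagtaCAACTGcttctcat
ROBO2 chr3:77039849-77040148 (+): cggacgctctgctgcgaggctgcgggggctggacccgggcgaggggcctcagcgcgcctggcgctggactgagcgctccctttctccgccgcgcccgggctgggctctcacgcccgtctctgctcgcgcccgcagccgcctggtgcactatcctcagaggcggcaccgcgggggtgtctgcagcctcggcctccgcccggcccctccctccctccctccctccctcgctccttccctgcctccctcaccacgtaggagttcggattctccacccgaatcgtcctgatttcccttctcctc
PLXNC1 chr12:94148327-94148626 (+): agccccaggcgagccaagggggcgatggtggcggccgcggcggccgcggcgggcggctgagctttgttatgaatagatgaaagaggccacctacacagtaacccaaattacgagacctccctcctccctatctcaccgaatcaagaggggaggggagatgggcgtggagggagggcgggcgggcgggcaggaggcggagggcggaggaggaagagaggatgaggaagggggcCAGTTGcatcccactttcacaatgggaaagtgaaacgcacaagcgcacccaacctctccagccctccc
PLXNC1 chr12:94262369-94262668 (+): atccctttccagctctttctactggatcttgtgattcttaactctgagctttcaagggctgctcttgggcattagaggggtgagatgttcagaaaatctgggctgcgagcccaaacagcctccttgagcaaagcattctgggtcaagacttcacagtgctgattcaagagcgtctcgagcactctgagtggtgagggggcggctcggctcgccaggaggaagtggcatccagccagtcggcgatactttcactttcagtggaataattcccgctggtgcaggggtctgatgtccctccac
The SEMA5A window held no CANNTG, nor did the second window of ROBO2 or of PLXNC1, while the first ROBO2 window held 2 and the first PLXNC1 window 1. Of all 35116 windows in the table, 68.7% held a CANNTG, and so did 41 of the 66 windows of the 38 guidance genes found there (62.1%). The narrower form CATATG, a special case of CANNTG that reads the same on both strands, was in 3.04% of all windows and in 0 of the 66. CAGATG, read on both strands, was in 14.7% of all windows and in 7 of the 66 (10.6%). CAGGTG, read likewise, was in 20.6% of all windows and in 11 of the 66 (16.7%). A match is a string of letters and not a bound site, and the arrays do not show which start the cells used.

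Without GFP replicate 1 the 9 guidance genes above still passed, and 3 more fell: SEMA4B, SEMA7A and SEMA3A. Their differences were then -0.70, -0.63 and -0.45, with limma adjusted p of 0.00406, 0.00491 and 0.0225. In each of these genes GFP replicate 1 had lain close to the TwistER arrays. That gave 7 rises and 5 falls among the 47, where 6.97% of all genes rose and 8.09% fell without this array. The calls of SEMA5A, ROBO2, PLXNC1, SEMA6D, NRP1 and SEMA3C held with any single array left out, with limma adjusted p of at most 0.0493.

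**Figure D4:**
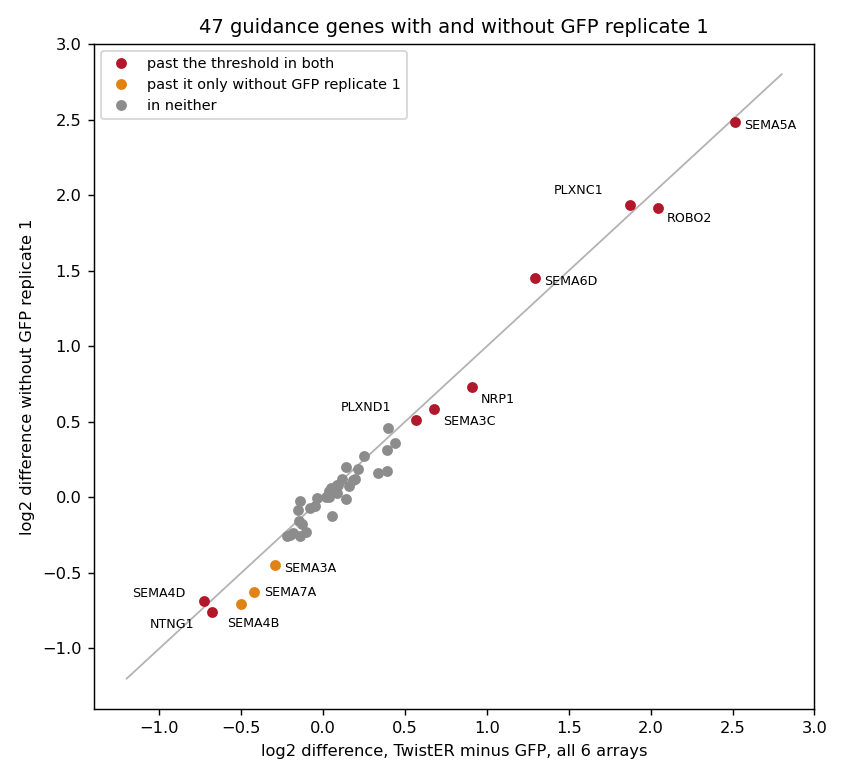
Log2 difference of the 47 guidance genes over all 6 arrays (horizontal axis) and without GFP replicate 1 (vertical axis), with the line of equal values. The 9 red genes passed in both, and the 3 orange genes SEMA4B, SEMA7A and SEMA3A passed without that array, each with a difference further below 0.

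Set side by side, known ligands and receptors did not all move together. For PLXNC1, which rose by 1.87, the ligand SEMA7A differed by -0.42. For ROBO2, which rose by 2.04, the ligands SLIT1, SLIT2 and SLIT3 differed by 0.03 to 0.11. SEMA5A and SEMA6D rose by 2.52 and 1.29, and PLXNB3 and PLXNA1, the receptors named for them above, differed by -0.05 and 0.05. Without GFP replicate 1 the PLXNA1 difference was -0.13. SEMA3C, NRP1 and PLXND1, a ligand with a co-receptor and a plexin that it can use, each rose, by 0.68, 0.91 and 0.57. These differences were 0.58, 0.73 and 0.51 without GFP replicate 1, the lowest GFP array for each of these genes. The PLXND1 call was lost without some single arrays, and NRP2, the other neuropilin, differed by 0.25 and did not pass. No test was made of these sets.

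A list of 38 membrane partners of the pathway, written from general knowledge with earlier results of these data known, had 36 measured genes, of which 8 rose (22.2%, against 4.72% of all genes), 2 fell (5.56%, against 4.11%) and 26 did not pass. The median difference of the list was -0.02. KDR, the main VEGF receptor and a partner of NRP1, read 6.81, 6.72 and 6.62 in the TwistER arrays, against 4.92, 5.06 and 4.79 in the GFP arrays, and rose 3.47-fold (1.79 ± 0.12, limma adjusted p = 5.60e-05). Its groups were far apart. VEGFA, its ligand, had a difference of -0.13 (adjusted p = 0.677). The latrophilins ADGRL3 and ADGRL2, adhesion receptors that bind FLRT proteins, rose by 1.08 ± 0.10 and 1.07 ± 0.10. Neogenin (NEO1), a receptor of netrins and of repulsive guidance molecules, rose by 0.96 ± 0.13, and RGMB, one of those molecules and a BMP co-receptor, by 0.89 ± 0.13. LRRC4C, the partner of netrin-G1, rose by 0.81 ± 0.16 where NTNG1 itself fell. LRRC4C was dim, with a GFP mean of 3.66, and its call was lost without TwistER replicate 1 or 2 (highest adjusted p = 0.0849). The other 2 that rose, PGF and FLRT2, are named after their values were seen. PGF, a VEGF relative, rose by 0.75. FLRT2, a ligand of UNC5 receptors, rose by 0.50 and lost its call without any one array other than GFP replicate 1. The genes that fell were the kinase MST1R, which can pair with B plexins, by 1.26 on the log2 scale, and FZD3, a frizzled receptor that guides axons in mice, by 0.76. MST1R lost its call without TwistER replicate 1 or 3 (highest adjusted p = 0.0701). DCC was dim, at 2.93 in TwistER arrays and 2.66 in GFP arrays on average, and its difference did not pass (adjusted p = 0.333).

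Of 68 listed transducers below these receptors 61 were measured; 6 rose (9.84%, against 4.72% of all genes), 0 fell in limma at the adjusted threshold (1 at an unadjusted p under 0.05) and 55 did not pass. The median difference was 0.11. This list leaned to bright genes, with 32 of the 61 in the upper quartile of all genes and 3 in the lower. The shares over all genes are not matched to it in brightness. MAGED1, which binds an UNC5 receptor, read 9.73, 9.75 and 9.59 in the TwistER arrays and 7.34, 8.46 and 8.61 in the GFP arrays. The gap was widest at GFP replicate 1, and the difference was 1.56 ± 0.29 over all arrays and 1.16 without that array, with limma adjusted p of 0.0128 and 0.000470. MICAL2, of a family of enzymes that oxidise actin below plexins, rose by 1.02 ± 0.23, and by 0.74 without GFP replicate 1. DAPK1, a kinase tied to death signalling by UNC5 receptors, rose by 0.89 ± 0.12. The adaptor GAB1, the Rac activator DOCK1 and ARHGEF12, which binds B plexins, rose by 0.59 ± 0.11, 0.54 ± 0.11 and 0.44 ± 0.11. Of these 6, DAPK1 kept its call with any single array left out. MAGED1 and MICAL2 lost theirs without any one TwistER array, DOCK1 also without GFP replicate 3, and GAB1 without GFP replicate 2 or 3 or TwistER replicate 1 or 2. ARHGEF12 lost its call without any one array other than GFP replicate 1. Without GFP replicate 1, 9 of the 61 rose (14.8%, where 6.97% of all genes rose) and 2 fell, where 8.09% of all genes fell. The rises added without it were CAP2, DPYSL2 and ENAH, at 0.78, 0.68 and 0.36, against 1.24, 1.23 and 0.30 over all arrays. The falls were MYO10 and CDK5, at -0.81 and -0.73, against -0.63 and -0.39 over all arrays.

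**Figure D5:**
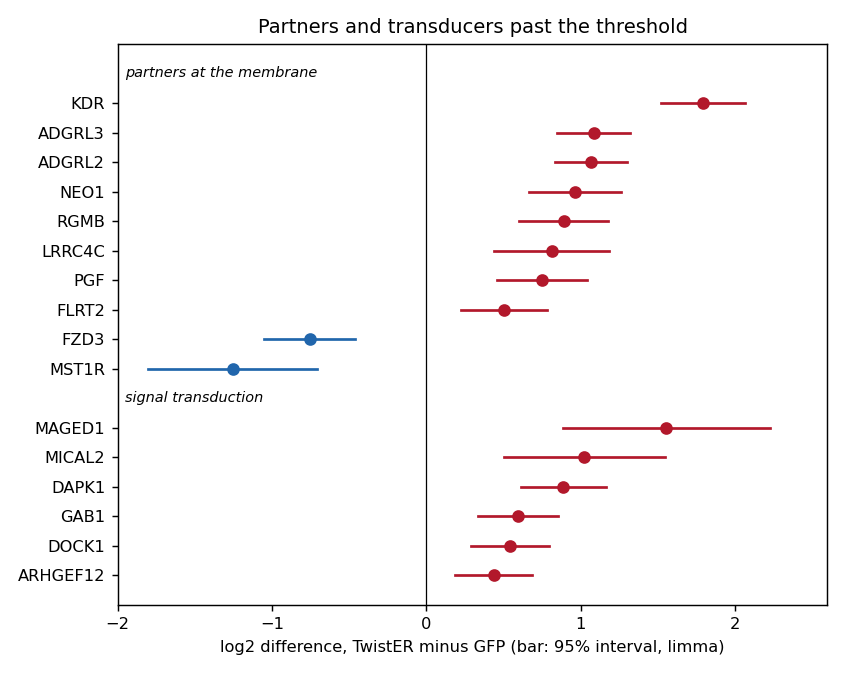
Log2 difference (TwistER minus GFP, horizontal axis) with limma's 95% interval for the partners and transducers past the threshold, 3 arrays per group. KDR at 1.79 and MAGED1 at 1.56 lead the rises, and MST1R at -1.26 and FZD3 at -0.76 are the falls.

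Guidance genes are also expressed by other cell types, whose markers were read in the same arrays. Beside the counts that follow, 4.72% of all genes rose and 4.11% fell, and without GFP replicate 1 these shares were 6.97% and 8.09%. Of 10 lung epithelial markers 4 fell (CDH1, EPCAM, KRT19 and KRT8), and 6 fell without GFP replicate 1. KRT8 lost its call without GFP replicate 2 or 3 or TwistER replicate 2 (highest adjusted p = 0.0739). The list had a list mean of 6.25 to 6.29 in the TwistER arrays and 7.41 to 7.79 in the GFP arrays. Of 10 endothelial markers 2 rose, PECAM1 by 0.61 and KDR, also one of the partners above, by 1.79, and the mean over the list was 4.12 to 4.21 in the TwistER arrays and 3.86 to 3.91 in the GFP arrays. PECAM1 lost its call without GFP replicate 2 or TwistER replicate 1 or 3 (highest adjusted p = 0.0765). CDH5, VWF, TEK and EMCN, which define endothelium, had means between 2.88 and 4.28 in TwistER arrays and 2.85 and 4.34 in GFP arrays, at or below the 26.7 percentile of brightness. CLDN5 was brighter, at 5.36 in TwistER arrays and 5.16 in GFP arrays on average, and its difference of 0.20 did not pass. TIE1 was higher in every TwistER array than in any GFP array, by 0.22 on average, and did not pass either. Of 11 fibroblast markers 4 rose: the collagens COL3A1, by 2.13, and COL1A1, by 0.54, the matrix protein FBLN1, by 1.85, and the receptor PDGFRA, by 1.01. COL1A1 lost its call without any one array other than GFP replicate 1 (highest adjusted p = 0.142). The matrix proteoglycan LUM fell by 1.63 on the log2 scale. The fibroblast list had a mean of 4.91 to 4.92 in TwistER arrays and 4.52 to 4.60 in GFP arrays. Of 10 neuronal and 9 measured leukocyte markers 0 passed in limma, and 0 had an unadjusted p under 0.05. Without GFP replicate 1, 1 leukocyte marker rose. Their list means were 4.38 to 4.47 and 3.78 to 3.95 in the TwistER arrays, against 4.37 to 4.45 and 3.73 to 3.81 in the GFP arrays. An array value has no true zero, so none of these markers can be called absent, and their part in the results was not tested.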

How the data were processed

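RNA from 6 cultures of H358 cells was read on microarrays. The authors deposited a log2 value per probe set, made with RMA per the submitters' processing notes. Its version and settings are not stated in the labels. RMA sets all arrays to one distribution, which would hide a change in total RNA. Values ran from 0.866 to 13.7. Groups came from the treatment labels, and 0 columns were left over. The titles say biological replicate and no more, so how independent the cultures of a line were is not known. Each p-value rests on the spread of these 6 samples. The labels give no batch.

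Of 33297 probe sets, 19460 had 1 gene symbol in the supplied platform annotation, 1754 had several and 12083 had none. The brightest probe set was kept for each of 18417 genes, with no filter on brightness. Entrez identifiers of all 47 guidance genes matched RefSeq's table (GRCh38.p14) with the same symbols. Paralogs can share probes on such arrays. limma 3.58.1 in R 4.3.3 was used (lmFit and eBayes, no covariates, 2-sided) and tested on simulated data. Tables and plots used Python 3.11.15, pandas 2.3.3 and matplotlib 3.10.9. The number of arrays limits precision.

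Named are all guidance genes past the threshold, the 8 brightest guidance genes, the 6 of the rest with the largest differences, up to 6 genes past the threshold per pathway list and direction, and genes of the cell type marker lists; other guidance genes are given by range, by family or beside a partner. Transducers that passed without GFP replicate 1 but not over all arrays are named too. The symbol rule uses no measured difference, but it and the lists were proposed with earlier results of these data known. Alternatives were other normalizations, 2 brightness filters, probe-set means, a trended variance, array weights, a replicate block, each array left out and 2 other thresholds. The fit of all probe sets was added after seeing the data.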

Additional observations from a re-analysis of the deposited data

How the results depend on the processing

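The 7 rises of guidance genes numbered 6 to 8 under every alternative except the filter at the median brightness, which left 17 of the 47 genes: 4 rose and 1 fell there, with a median difference of 0.14, since ROBO2, PLXNC1, SEMA6D and SEMA4D were no longer tested. The falls were less stable. They numbered 5 with array weights, 1 with the mean of probe sets, 0 at an adjusted p under 0.01, and 0 to 5 with 1 array left out; the second SEMA4D probe set had a difference of 0.20. Genes called over the whole table numbered 3268 with array weights, 807 at an adjusted p under 0.01 and 831 to 2773 with 1 array left out. Transducers called numbered 14 with array weights and 1 to 11 with 1 array left out, and none of the causes was tested. With the replicate number as a replicate block, 7 guidance genes rose and 2 fell, of 1592 genes called. The numbers were not taken as pairs, as same-numbered arrays' deviations correlated at 0.14, 0.02 and 0.16, not all above 0.1. That 5 of 6 arrays correlated best with their own number is a hint of pairing from the data, not the design. Over the 19 named guidance genes, 259 single results kept their side of the threshold, 12 lost it and 7 gained it. Among these 19 genes the second SEMA4D probe set, fitted after seeing the data, was the one case of a turned direction. Outside them, some small differences that did not pass changed sign with 1 array left out, those of NTN1 and PLXNA1 among them. Of the 47 genes, 8 lay in the lower quartile of brightness, where small differences are hard to measure.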
